A study of Homo sapiens with 6 samples.

Results

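NF-κB signalling, the chemokines and the interleukin 1 family were followed in 45 genes of a table of 58243, taken by their symbols. They comprise 11 chemokines, 7 genes of the interleukin 1 family, 4 other cytokines, 5 NF-κB subunits, 8 inhibitors and feedback genes, 6 kinases and adaptors, and 4 effector targets. RNA was sequenced from human cells labelled Hep3B, a hepatocellular carcinoma line, grown in DMEM with FBS. Cells of 3 libraries received si-SNHG17-1, which targets the long noncoding RNA SNHG17, and cells of the other 3 received the control siRNA si-NC. All si-SNHG17-1 libraries carry the same siRNA in the same line, and no transfection time or dose was given. Nothing in the labels says whether replicates came from separate cultures, so a p-value here is set by library-to-library variation that could be purely technical.

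NF-κB proteins are dimers of REL and NFKB family subunits that are held inactive by inhibitors of the IκB family. Receptors for tumour necrosis factor and interleukin 1 act through adaptors and kinases that mark IκB proteins for breakdown, and the freed dimers enter the nucleus and bind κB sites in DNA. Chemokines, cytokines and several of the pathway's own inhibitors are among the genes they switch on, and in liver tumours these chemokines are known for drawing in neutrophils and other leukocytes.

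The deposited counts summed to between 30207055 and 41620321 in the si-SNHG17-1 libraries and between 38245838 and 42271168 in the si-NC libraries. SNHG17 itself had 8.03, 8.02 and 8.27 CPM (the count relative to the TMM-scaled library total) with si-SNHG17-1, against 22.4, 22.8 and 23.9 CPM with si-NC, a log2 fold change of -1.51 ± 0.12 (adjusted p = 0.00101). Log2 fold changes are si-SNHG17-1 over si-NC, and ± beside one is its SE. Hepatocyte markers were almost absent: summed over 8 genes they reached 2.25 to 2.88 CPM with si-SNHG17-1 and 1.69 to 2.57 CPM with si-NC, with TTR at 0 everywhere and AFP at no more than 0.214 CPM, so the label Hep3B had no backing from these markers. Fibroblast markers summed to 244 to 257 CPM with si-SNHG17-1 and 182 to 199.8 CPM with si-NC, COL1A2 and PDGFRA were at 0, and 2 of the 5 tested of 7, COL1A1 and COL3A1, were higher. Endothelial markers summed to 10.4 to 11.4 CPM with si-SNHG17-1 and 5.45 to 6.02 CPM with si-NC, KDR was at 0, and 1 of the 5 tested of 6, CDH5, was higher. Leukocyte markers summed to 7.75 to 9.57 CPM with si-SNHG17-1 and 5.60 to 6.28 CPM with si-NC, mostly CSF1R, none of the 3 tested of 10 passed the test, and MS4A1 was at 0. Of all genes tested, 5.25% were called higher. The part of these markers in the results on the members was not tested. In bulk RNA, fewer cells of a kind and less RNA per cell cannot be told apart.

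Promoter sequence shows which members carry a κB-like word near their start. In RefSeq promoters of GRCh38.p14, from 250 bases before to 50 after a start, the word GGNNTTTCC was searched on both strands, and so was the longer κB consensus. Many consensus matches overlap a match to the word, but some, such as that 135 bases upstream in BIRC3, do not. An entry was found for 34 of the 45 members, and 21 of these genes (61.8%) held the word in at least 1 of their promoters, against 2078 of 27305 genes (7.61%) in the whole table. Counted by promoter, 24 of 55 member promoters held it, against 2198 of 35116 (6.26%) in the whole table. The consensus stood in 16 of the 34 genes (47.1%), against 7.09% of all genes. The 6 members that are CXC chemokine genes of the chromosome 4 cluster are shown because they hold nearly the same word and differ in their RNA counts. Each window runs from 120 to 31 bases upstream of the start, 5′ to 3′ on the gene's strand, and capitals mark matches to the word or the consensus. CXCL8 (chr4:73740449-73740538), CXCL6 (chr4:73836558-73836647) and CXCL1 (chr4:73869273-73869362) lie on the plus strand, and CXCL5 (chr4:73998708-73998797), CXCL3 (chr4:74038720-74038809) and CXCL2 (chr4:74099226-74099315) on the minus strand.
CXCL8: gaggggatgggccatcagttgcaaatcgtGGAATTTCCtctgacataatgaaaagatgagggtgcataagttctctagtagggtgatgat
CXCL2: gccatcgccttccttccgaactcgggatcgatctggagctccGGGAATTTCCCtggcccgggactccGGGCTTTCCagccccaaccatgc
CXCL3: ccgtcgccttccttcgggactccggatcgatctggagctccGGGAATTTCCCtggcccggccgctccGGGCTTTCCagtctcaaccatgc
CXCL1: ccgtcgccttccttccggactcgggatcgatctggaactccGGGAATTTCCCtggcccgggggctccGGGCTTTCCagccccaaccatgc
CXCL5: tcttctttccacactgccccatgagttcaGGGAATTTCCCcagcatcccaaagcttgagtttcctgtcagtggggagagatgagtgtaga
CXCL6: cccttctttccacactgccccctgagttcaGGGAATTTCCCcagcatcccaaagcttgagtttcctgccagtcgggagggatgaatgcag

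CXCL2, CXCL3 and CXCL1 share a pair of matches, CXCL5 and CXCL6 share one, and the match of CXCL8 lacks the flanking letters of the consensus. The word began 91 bases upstream in CXCL8, 90 in CXCL5 and 89 in CXCL6. For comparison, the promoter of TNFAIP2, the member with the smallest adjusted p among those that fell, held the word 97 bases upstream, in a GC-rich window on the plus strand of chr14:103123341-103123430.
TNFAIP2: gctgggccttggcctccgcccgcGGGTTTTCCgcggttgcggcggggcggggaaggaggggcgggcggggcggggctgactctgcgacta

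**Figure D1:**
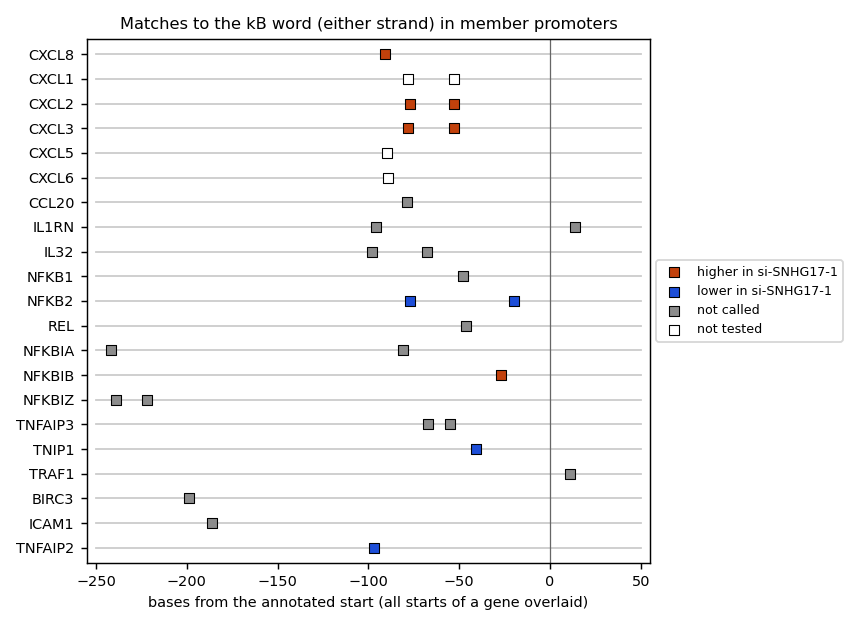
Position of each match to the κB word, in bases from the annotated start, for the 21 member genes that hold one, with all starts of a gene overlaid. Squares are filled by the result of the RNA comparison, and matches stand in members that were higher, lower, not called and not tested.

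Among the members called in either direction, 7 of the 8 with an entry held the word: CXCL8, CXCL2, CXCL3 and NFKBIB, which were higher, and NFKB2, TNIP1 and TNFAIP2, which were lower. SOD2 had an entry with no match in this window. It also stood in 11 of the 21 tested but uncalled members with an entry. A match is a run of letters and not a measured binding site.

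Of the 45 members, 39 had enough counts to be tested: 37 passed the filter on low counts in both groups taken alone, 2 in neither alone, and none through only 1 group. By edgeR's quasi-likelihood test, with p-values adjusted over 18679 genes by the Benjamini-Hochberg method, 6 members were higher with si-SNHG17-1 (CXCL8, CXCL2, CXCL3, NFKBIB, SOD2 and IER3) and 3 were lower (NFKB2, TNIP1 and TNFAIP2). These 9 make 23.1% of the tested members, against 10.5% of all genes tested. The members were chosen with earlier results of these data known, so their share can reflect that choice and the contrast is not a test. Of all genes tested, 5.25% were called higher and 5.21% lower. The members showed no common direction: 19 had a positive and 20 a negative log2 fold change, and their median was -0.09, against -0.00 over all genes tested. Their median change in size, regardless of sign, was 0.36, against 0.28 over all genes tested. The 2 groups did not overlap in 18 members (46.2%), 9 higher and 9 lower, against 33.7% of all genes tested, 16.4% higher and 17.3% lower. All members together took 0.342 to 0.353% of the counts with si-SNHG17-1 and 0.339 to 0.369% with si-NC.

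**Figure D2:**
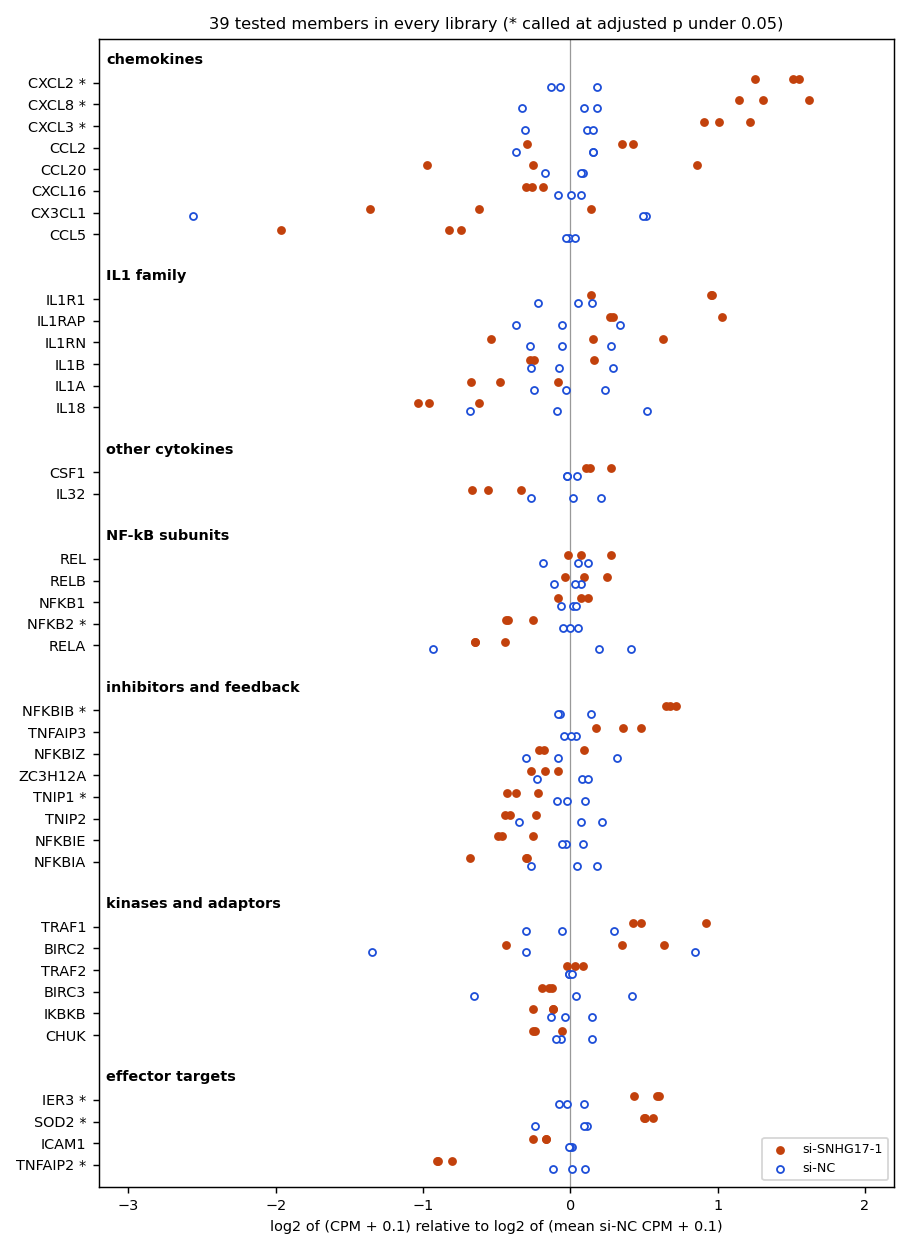
Each of the 39 tested members in every library, as log2 of CPM + 0.1 relative to the si-NC mean, by role; filled points are si-SNHG17-1 libraries, open points si-NC libraries, and asterisks mark members called at an adjusted p under 0.05. CXCL8, CXCL2 and CXCL3 stand to the right of their si-NC points and TNFAIP2 to the left, while BIRC2, IL18 and RELA spread widely among the si-NC libraries.

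Of the neutrophil-attracting CXC chemokines among the members, the 3 with any counts were more abundant with si-SNHG17-1. CXCL8, CXCL2 and CXCL3, ligands of the receptor CXCR2, were each raised more than 2-fold. These 3 are the only called members past that size, and 1.9% of all genes tested were both called and past it. Of the 11 chemokines, 8 were tested, and edgeR called 3 higher and 0 lower, against 5.25% and 5.21% of all genes tested. Of the 8, 5 had an unadjusted p under 0.05. Over all genes tested that share was not counted, so such counts, here and for other groups, have no background beside them. DESeq2 and limma-voom each called 1 chemokine lower, CCL5. The 3 genes share a cluster on chromosome 4 with CXCL1, CXCL5 and CXCL6, and CXCL8 and CXCL2 mark the ends of a stretch of 358788 bases that holds them all.

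CXCL8 (interleukin 8; chr4:73740506-73743716, GRCh38) had 43.9, 49.1 and 60.9 CPM with si-SNHG17-1, against 15.8, 21.1 and 22.4 CPM with si-NC. All 3 si-SNHG17-1 libraries lay above all 3 si-NC libraries, with the highest in replicate 3. Its means were 51.3 ± 8.73 CPM and 19.8 ± 3.53 CPM (SD, n = 3 each), a 2.59-fold rise (log2 fold change 1.37 ± 0.18, adjusted p = 0.00531). CXCL2, a chemokine of the GRO group (chr4:74097035-74099293), had 28.6, 35.2 and 34.3 CPM with si-SNHG17-1, against 11.4, 10.9 and 13.5 CPM with si-NC. The groups were separated by a wide gap, and the rise was 2.74-fold (log2 fold change 1.45 ± 0.14, adjusted p = 0.00237). CXCL3, a close relative of CXCL2 (chr4:74036589-74038807), had 7.82, 6.76 and 6.28 CPM with si-SNHG17-1, against 3.58, 3.69 and 2.65 CPM with si-NC. It too was higher in each si-SNHG17-1 library than in any si-NC library, by 2.10-fold (log2 fold change 1.07 ± 0.20, adjusted p = 0.0178). The CXCL3 call was lost without si-SNHG17-1 replicate 1 (adjusted p = 0.0745) or replicate 2 (0.0597), while CXCL8 and CXCL2 kept theirs with any 1 library left out.

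CXCL1, CXCL5 and CXCL6, which also act on CXCR2, were listed at 0 counts in all 6 libraries. A count of 0 allows at most 3 counts, or 0.0712 to 0.0977 CPM per si-SNHG17-1 library and 0.0719 to 0.0796 CPM per si-NC library, counting error only. Of the 50-base windows in CXCL1 transcripts, 4.81% also occur in CXCL2 or CXCL3 and of its 100-base windows 0 of 1197 do. CXCL2 shares 12.5% and CXCL3 6.01% of their 50-base windows within this trio. With the counts of CXCL1, CXCL2 and CXCL3 added up as 1 gene, the log2 fold change was 1.38 ± 0.11 (adjusted p = 0.00134).

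CCL5 (RANTES), a T cell and monocyte attractant and the most abundant chemokine member per exon length, pointed the other way. It had 167, 177 and 75.9 CPM with si-SNHG17-1, against 295, 303 and 290.5 CPM with si-NC. The groups did not overlap, but replicate 3 of si-SNHG17-1 lay far below the other 2, and the log2 fold change of -1.08 ± 0.28 missed the threshold (adjusted p = 0.0511). Without that library it was smaller in size, -0.77, and passed (adjusted p = 0.0104), in only 1 of the 6 fits that left out 1 library (adjusted p up to 0.116). CXCL16, a membrane-bound ligand of CXCR6, had 40.2, 38.2 and 37.0 CPM with si-SNHG17-1 and 45.9, 43.1 and 48.1 CPM with si-NC; the groups did not overlap and the test was not passed (-0.25 ± 0.09, adjusted p = 0.142). Its exons overlap 85 bases of MED11 on the other strand, which was higher (1.04 ± 0.15, adjusted p = 0.00680), and the sources used here do not say whether counting used strand. CCL2, the monocyte attractant MCP-1, ranged from 2.34 to 3.92 CPM with si-SNHG17-1 and from 2.22 to 3.24 CPM with si-NC (0.20 ± 0.28, adjusted p = 0.702). CCL20, which attracts cells bearing CCR6, was at 0.523 to 2.12 CPM with si-SNHG17-1 and 0.982 to 1.20 CPM with si-NC. CX3CL1, the ligand of CX3CR1, was at 0.131 to 0.553 CPM with si-SNHG17-1 and 0 to 0.743 CPM with si-NC. For CX3CL1 the si-NC libraries held 28, 0 and 29 counts, so that 1 library decides its mean.

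**Figure D3:**
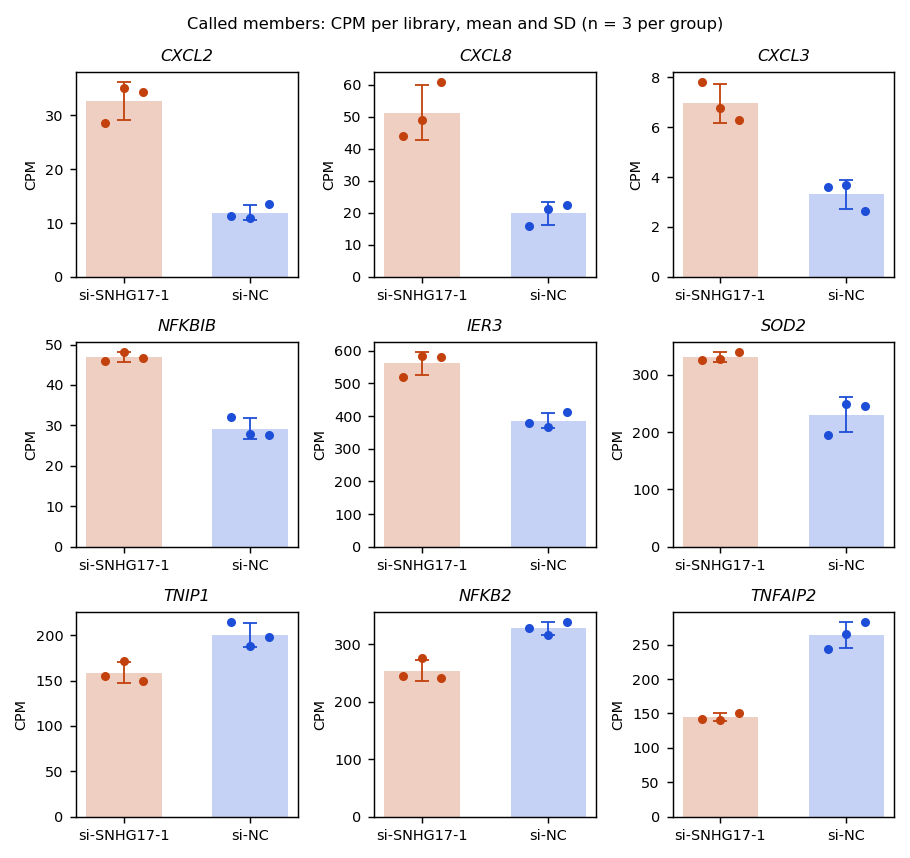
CPM of the 9 called members in each library, with si-SNHG17-1 left of si-NC; bars are means from 0, error bars SD and points the 3 libraries of a group. In every panel the points of the groups do not overlap: 6 members lie higher with si-SNHG17-1 and NFKB2, TNIP1 and TNFAIP2 lower.

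No gene of the interleukin 1 family passed edgeR's test. Of 7 members 6 were tested, 2 of them had an unadjusted p under 0.05, limma-voom called 0, and DESeq2 called 1 higher (IL1R1) and 1 lower (IL18). IL1A had 5.31, 4.63 and 7.03 CPM with si-SNHG17-1, against 8.78, 6.25 and 7.31 CPM with si-NC (log2 fold change -0.40 ± 0.22, adjusted p = 0.292), and IL1B had 4.87, 3.66 and 3.58 CPM with si-SNHG17-1, against 4.11, 3.59 and 5.35 CPM with si-NC (-0.11 ± 0.23, adjusted p = 0.814). The values overlapped for both. IL1RN, the secreted receptor antagonist, stayed at or below 0.445 CPM, and IL33, an alarmin, had 0, 0 and 13 counts with si-SNHG17-1 and 4, 0 and 0 counts with si-NC.

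Both chains of the interleukin 1 receptor had higher means with si-SNHG17-1 without passing the test. IL1R1, the ligand-binding chain, had 12.5, 22.1 and 22.0 CPM with si-SNHG17-1, against 11.7, 9.70 and 12.5 CPM with si-NC (0.74 ± 0.24, adjusted p = 0.0943). Replicate 1 of si-SNHG17-1 sat within the si-NC values while the other 2 stood apart, and without that replicate the call was made (0.97, adjusted p = 0.0379). Only that 1 of the 6 fits with 1 library left out passed (adjusted p up to 0.238). IL1RAP, the accessory chain, had 64.1, 64.8 and 108 CPM with si-SNHG17-1, against 51.0, 41.1 and 67.2 CPM with si-NC (0.57 ± 0.25, adjusted p = 0.193). IL18, an inflammasome-processed cytokine, had 72.7, 76.8 and 97.0 CPM with si-SNHG17-1, against 93.2, 214 and 140.1 CPM with si-NC. The si-NC libraries differed among themselves 2.30-fold, and the log2 fold change of -0.86 ± 0.28 did not pass (adjusted p = 0.0943). Without si-NC replicate 1 it was -1.11 and passed (adjusted p = 0.0243), the only 1 of 6 fits with 1 library left out that passed (adjusted p up to 0.260).

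Among the other cytokines, CSF2 and CSF3, growth factors of myeloid cells, were at 0 in all si-SNHG17-1 libraries, and the si-NC libraries had 0, 4 and 0 counts of CSF2 and 0, 8 and 0 counts of CSF3. IL32, a proinflammatory cytokine without a mouse counterpart, had 58.0, 49.6 and 46.0 CPM with si-SNHG17-1, against 60.9, 73.9 and 84.6 CPM with si-NC (-0.51 ± 0.14, adjusted p = 0.0635). Every si-SNHG17-1 value was below every si-NC value. The call was made without si-NC replicate 1 (-0.63, adjusted p = 0.0337), but in only 1 of the 6 fits that left out 1 library (adjusted p up to 0.212). CSF1, the macrophage growth factor, had 35.7, 34.8 and 39.2 CPM with si-SNHG17-1 and 33.4, 31.9 and 31.9 CPM with si-NC (0.17 ± 0.10, adjusted p = 0.316). By edgeR 0 of the 2 tested were called, 1 had an unadjusted p under 0.05, DESeq2 called IL32 lower and limma-voom called 0.

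Of the 5 NF-κB subunits only NFKB2 passed the test, 20% called against 10.5% of all genes tested. NFKB2, whose p100 precursor is cut to p52 in the noncanonical branch (chr10:102394110-102402529), had 245, 275 and 242 CPM with si-SNHG17-1, against 327, 316 and 339 CPM with si-NC. All si-SNHG17-1 libraries were below the si-NC libraries, at 254 ± 18.4 against 327 ± 11.6 CPM (SD, n = 3 each; -0.37 ± 0.07, adjusted p = 0.0242). That call was lost without si-SNHG17-1 replicate 1 (adjusted p = 0.116), si-SNHG17-1 replicate 3 (0.0979) or si-NC replicate 3 (0.0684). RELA, the p65 subunit of the canonical dimer, had 67.3, 58.5 and 58.3 CPM with si-SNHG17-1, against 122, 47.9 and 105 CPM with si-NC. Its si-NC replicate 2 lay below all 3 si-SNHG17-1 libraries and the other 2 above them (-0.57 ± 0.30, adjusted p = 0.273). Without that library the log2 fold change was -0.88 and the call was made (adjusted p = 0.0133). It was made in only 1 of the 6 fits that left out 1 library, which gave RELA changes down to -0.32 in size (adjusted p up to 0.572). NFKB1, which encodes p105 and p50, had 93.3, 96.3 and 83.7 CPM with si-SNHG17-1 and 89.8, 85.0 and 91.2 CPM with si-NC (0.04 ± 0.08, adjusted p = 0.818). REL and RELB likewise overlapped, with log2 fold changes of 0.12 ± 0.14 and 0.11 ± 0.11 (adjusted p = 0.648 and 0.600). The exons of REL share 5702 bases with AC010733.2, 43.3% of their length, so its counts are uncertain.

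The inhibitors and feedback genes went in both directions, with 1 of 8 higher and 1 lower, 25% called against 10.5% of all genes tested. NFKBIB, the IκBβ protein that holds dimers in the cytoplasm (chr19:38899700-38908893), had 45.8, 48.2 and 46.8 CPM with si-SNHG17-1, against 32.2, 27.9 and 27.6 CPM with si-NC. Its replicates were tight and the groups far apart, at 46.9 ± 1.22 against 29.2 ± 2.54 CPM (SD, n = 3 each), a 1.61-fold rise (0.68 ± 0.10, adjusted p = 0.00890). The call was made with any 1 library left out. NFKBIB shares 40 exon bases with SIRT2 on the other strand, whose own log2 fold change was 0.22 ± 0.11 (adjusted p = 0.232). TNIP1, a ubiquitin-binding partner of TNFAIP3 (chr5:151029945-151093577), had 155, 172 and 149 CPM with si-SNHG17-1, against 215, 189 and 198 CPM with si-NC (-0.34 ± 0.09, adjusted p = 0.0489). The groups did not overlap, but the call was lost in each of the 6 fits that left out 1 library (adjusted p = 0.0665 to 0.168).

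The other inhibitors missed the threshold in edgeR's test, TNFAIP3 and NFKBIE narrowly; DESeq2 called TNFAIP3 higher (adjusted p = 0.0272) and NFKBIE lower (0.0199), and limma-voom called NFKBIE lower (0.0482). TNFAIP3 (A20), a ubiquitin-editing enzyme and textbook NF-κB target, had 290.0, 255 and 315 CPM with si-SNHG17-1, against 219.9, 233 and 227 CPM with si-NC (0.34 ± 0.09, adjusted p = 0.0508), all 3 above the si-NC values. Without si-SNHG17-1 replicate 2 it passed (0.43, adjusted p = 0.0468), in only 1 of the 6 fits that left out 1 library (adjusted p up to 0.151). NFKBIE, the IκBε protein, had 40.9, 47.4 and 40.1 CPM with si-SNHG17-1, against 59.9, 55.2 and 54.3 CPM with si-NC (-0.40 ± 0.10, adjusted p = 0.0503). NFKBIA, the IκBα protein that NF-κB itself induces, had 116, 88.3 and 115 CPM with si-SNHG17-1, against 146, 161 and 118 CPM with si-NC (-0.41 ± 0.15, adjusted p = 0.123). The nearest values of NFKBIA, 116 and 118 CPM, almost touched. TNIP2, NFKBIZ and ZC3H12A had overlapping groups and log2 fold changes of -0.36 ± 0.15, -0.09 ± 0.19 and -0.17 ± 0.12 (adjusted p = 0.188, 0.807 and 0.411). TNIP2 passed without si-NC replicate 1 (-0.51, adjusted p = 0.0454), in only 1 of the 6 fits that left out 1 library (adjusted p up to 0.417).

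None of the 6 kinases and adaptors was called by edgeR or limma-voom. Only 1 had an unadjusted p under 0.05, TRAF1, and DESeq2 called that gene higher. TRAF1, an NF-κB-induced adaptor of tumour necrosis factor receptors, had 14.5, 19.8 and 14.0 CPM with si-SNHG17-1, against 8.41, 9.99 and 12.8 CPM with si-NC (0.63 ± 0.21, adjusted p = 0.102). CHUK and IKBKB, the catalytic IκB kinases α and β, had log2 fold changes of -0.18 ± 0.11 and -0.16 ± 0.12 (adjusted p = 0.327 and 0.420). TRAF2, the adaptor that recruits BIRC2 and BIRC3, had 92.5, 89.0 and 95.8 CPM with si-SNHG17-1 and 90.1, 90.0 and 91.3 CPM with si-NC (0.03 ± 0.07, adjusted p = 0.832).

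BIRC2 and BIRC3, the cellular inhibitor of apoptosis ubiquitin ligases, were unsteady within the control group. BIRC2 also spread 2.11-fold among the si-SNHG17-1 libraries. BIRC3 had 200.2, 192 and 197 CPM with si-SNHG17-1, against 139, 292 and 225 CPM with si-NC (-0.16 ± 0.23, adjusted p = 0.726). BIRC2 had 32.1, 18.5 and 39.1 CPM with si-SNHG17-1, against 9.82, 45.2 and 20.4 CPM with si-NC (0.25 ± 0.52, adjusted p = 0.810). Their genes lie 7807 bases apart on chromosome 11, and in both the si-NC order was replicate 1 lowest and replicate 2 highest, as it was for IL18 on the same chromosome. RELA, also on chromosome 11, had the opposite si-NC order, with replicate 1 highest at 122 CPM and replicate 2 lowest at 47.9 CPM. The highest si-NC library of BIRC2 was 4.60 times the lowest. A spread of at least 2-fold within a group was found for 5 of the 39 tested members among the si-SNHG17-1 libraries (18.3% of all genes tested) and for 5 among the si-NC libraries (20.4%).

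**Figure D4:**
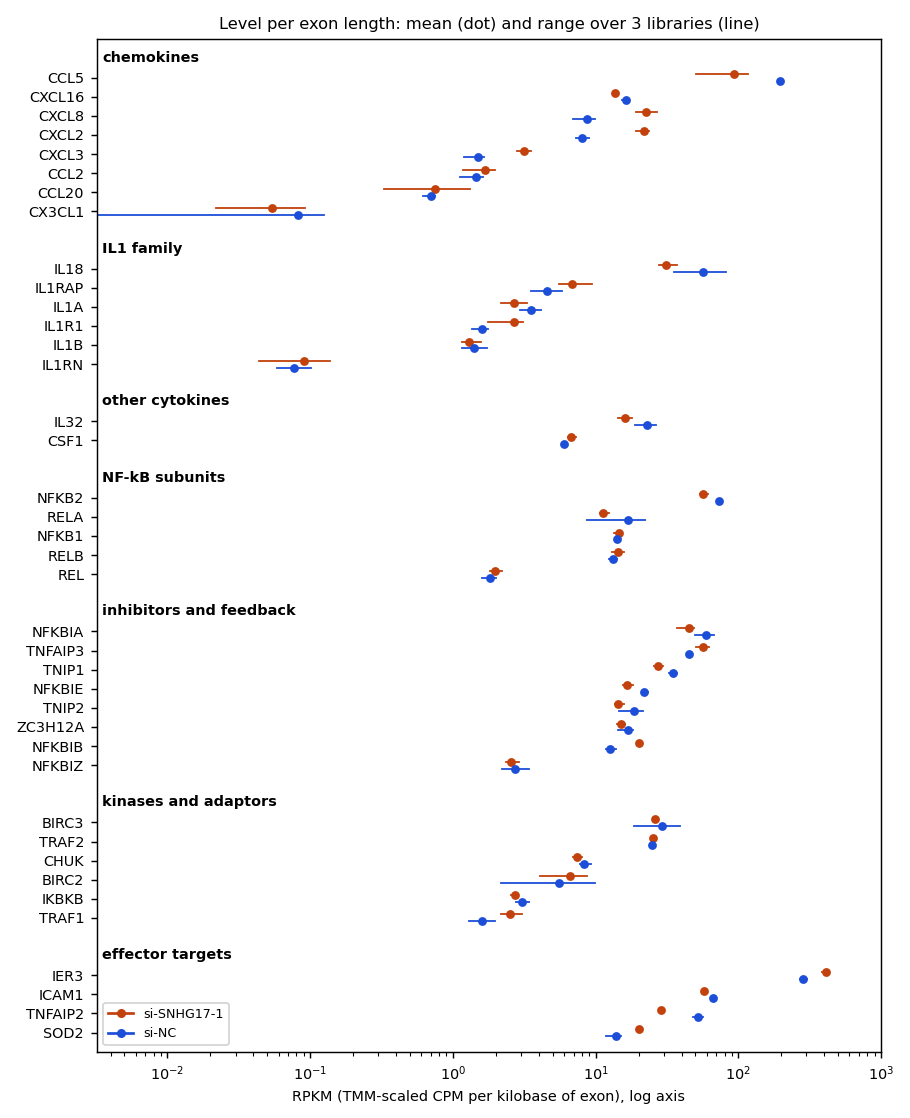
Levels of the 39 tested members per kilobase of exon on a log axis, as the mean (dot) and range (line) of 3 libraries, si-SNHG17-1 above si-NC for each gene. IER3 is highest, CCL5 the highest chemokine, and the range of CX3CL1 with si-NC runs off the left edge because 1 library is at 0.

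Among the effector targets, 2 of 4 rose and 1 fell by the test, against 5.25% called higher and 5.21% lower of all genes tested. IER3, a stress-induced early response gene that modulates cell death (chr6:30743199-30744554), had 520.4, 585 and 579 CPM with si-SNHG17-1, against 379.7, 366 and 411 CPM with si-NC. It was higher in each si-SNHG17-1 library, 1.46-fold over the si-NC mean (0.54 ± 0.07, adjusted p = 0.00653), and kept the call with any 1 library left out. SOD2, the mitochondrial superoxide dismutase (chr6:159669057-159762529), had 326, 327 and 340.1 CPM with si-SNHG17-1, against 195, 249 and 246 CPM with si-NC (0.52 ± 0.10, adjusted p = 0.0206). That rise was lost without si-SNHG17-1 replicate 1 (adjusted p = 0.0812), 2 (0.0757) or 3 (0.0844). SOD2 shares 298 exon bases with WTAP on the other strand, which was also higher (0.57 ± 0.07, adjusted p = 0.00522), and IER3 shares 359 bases, 26.5% of its exons, with its antisense gene, AL662797.2 in the table (0.35 ± 0.12, adjusted p = 0.116); the part of these reads was not tested.

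TNFAIP2, a tumour necrosis factor-induced protein linked to membrane nanotubes, was the effector target that fell (chr14:103123442-103137439). It had 142, 141 and 151 CPM with si-SNHG17-1, against 244, 266 and 283 CPM with si-NC. No si-SNHG17-1 library came near the si-NC values, and the means of 145 ± 5.44 and 264 ± 19.4 CPM (SD, n = 3 each) differed by a log2 fold change of -0.87 ± 0.08 (adjusted p = 0.00183), which passed with any 1 library left out. ICAM1, the adhesion molecule that binds leukocyte integrins, had 219, 219 and 205 CPM with si-SNHG17-1, against 248, 245 and 243 CPM with si-NC. These did not overlap, but the log2 fold change of -0.19 ± 0.06 missed the threshold (adjusted p = 0.0953). The exons of ICAM1 share 815 bases, 22.0% of their length, with AC011511.5 on the other strand.

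Per kilobase of exon, a scale that allows for the length of a gene, IER3 was the highest member at 414 RPKM with si-SNHG17-1 and 284 RPKM with si-NC. CCL5 followed at 92.6 RPKM with si-SNHG17-1 and 196 RPKM with si-NC, so that with si-NC it stood above every other member but IER3. The length used is the union of all annotated exons, 1512 bases for CCL5 but 16493 for SOD2, so the ranks depend on the annotation. CXCL8 and CXCL2 had similar levels, 22.6 and 21.8 RPKM with si-SNHG17-1 and 8.70 and 7.97 RPKM with si-NC, while CXCL3 reached 3.14 RPKM with si-SNHG17-1 and 1.49 RPKM with si-NC. Among the subunits NFKB2 was highest, at 56.6 RPKM with si-SNHG17-1 and 73.0 RPKM with si-NC, and REL lowest, at 1.99 RPKM with si-SNHG17-1 and 1.83 RPKM with si-NC. IL18 was the highest of its family, at 31.3 RPKM with si-SNHG17-1 and 56.8 RPKM with si-NC. IL1A reached 2.66 RPKM with si-SNHG17-1 and 3.51 RPKM with si-NC, and IL1B 1.30 RPKM with si-SNHG17-1 and 1.41 RPKM with si-NC.

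Other genes of the pathway were read from lists drawn up by role, with earlier results of these data known. Of 38 upstream signalling genes 34 were tested, 2 were higher and 3 lower, 14.7% called against 10.5% of all genes tested. IRAK2, a kinase-like adaptor of interleukin 1 and Toll-like receptors, had 32.7, 39.5 and 34.9 CPM with si-SNHG17-1, against 71.4, 59.0 and 68.7 CPM with si-NC (-0.89 ± 0.12, adjusted p = 0.00538). Its groups did not overlap and the call was made with any 1 library left out. RBCK1 (HOIL-1), part of the linear ubiquitin ligase, fell (-0.48 ± 0.10, adjusted p = 0.0267), a call lost in 5 of the 6 such fits (adjusted p = 0.0573 to 0.117) and made without si-NC replicate 1 (0.0310). RIPK1, a kinase of the tumour necrosis factor receptor complex, also fell (-0.35 ± 0.08, adjusted p = 0.0351), lost in all 6, and was named after its value was seen. RIPK2, the kinase of NOD receptors, was higher (0.48 ± 0.09, adjusted p = 0.0162), a call lost without si-SNHG17-1 replicate 1 (0.0719), 2 (0.0583) or 3 (0.0550). CARD10, a scaffold upstream of the IκB kinases, was higher (0.31 ± 0.08, adjusted p = 0.0475), and its call was lost in all 6 fits that left out 1 library. Of 10 other inhibitors, all tested, 1 was higher and 0 lower, 10% called, close to the 10.5% of all genes tested. The higher one was OTUD7B, a deubiquitinase (0.30 ± 0.07, adjusted p = 0.0347), a call lost likewise in all 6. Of the 10, 2 had an unadjusted p under 0.05.

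Of 28 other textbook targets of NF-κB 24 were tested, 7 were higher and 1 lower, 33.3% called against 10.5% of all genes tested. This list too was drawn up with earlier results of these data known, so its share can reflect the choice of genes. PTGS2, the inducible cyclooxygenase of prostaglandin synthesis, had 110.0, 110.2 and 117 CPM with si-SNHG17-1, against 36.0, 39.1 and 36.0 CPM with si-NC. It rose 3.03-fold with almost no spread inside either group (1.60 ± 0.08, adjusted p = 0.000252). BMP2, a growth factor of the TGF-β superfamily, had 298, 311 and 294 CPM with si-SNHG17-1, against 163, 165 and 182 CPM with si-NC (0.82 ± 0.07, adjusted p = 0.00163). IL6, BCL2L1, PLAU, CFB and KLF6 were the other 5 that were higher, with log2 fold changes of 1.02 ± 0.10, 0.37 ± 0.08, 1.62 ± 0.34, 0.58 ± 0.08 and 1.20 ± 0.15, named after their values were seen. IL6, CFB and KLF6 passed with any 1 library left out, while BCL2L1 passed only without si-NC replicate 3 (adjusted p = 0.0437; 0.0593 to 0.115 in the other 5) and PLAU only without si-SNHG17-1 replicate 2 (0.0446; 0.0631 to 0.0974). C3, the central complement component, was the one that fell (-0.43 ± 0.07, adjusted p = 0.0127), a call lost without si-SNHG17-1 replicate 1 (0.0643).

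Of 15 chemokines outside the member list only 4 had enough counts to be tested and edgeR, DESeq2 and limma-voom each called 0 of them, while 2 had an unadjusted p under 0.05. CXCL10, the interferon-induced ligand of CXCR3, had 10.2, 7.48 and 9.96 CPM with si-SNHG17-1 and 7.27, 9.48 and 7.54 CPM with si-NC (0.18 ± 0.19, adjusted p = 0.600). Of 12 chemokine receptors 7 were listed at 0 in every library, CXCR1 and CXCR2 among them, and 2 were tested. Of these 2, 1 was called higher, against 5.25% of all genes tested. CXCR4, the receptor of CXCL12, had 39.3, 41.4 and 46.0 CPM with si-SNHG17-1, against 30.0, 22.2 and 26.9 CPM with si-NC, a rise of 0.68 ± 0.14 on the log2 scale (adjusted p = 0.0243). The CXCR4 call was lost in 5 of the 6 fits that left out 1 library (adjusted p = 0.0539 to 0.0797) and made without si-NC replicate 1 (0.0239). Of 13 genes of interleukin 1 processing and its relatives, 7 were at 0 throughout, NLRP3 among them. In this list 4 genes were tested and 1 was lower, against 5.21% of all genes tested. GSDMD, the pore-forming protein of pyroptosis, was the lower one, with 4.00, 3.82 and 5.24 CPM with si-SNHG17-1 against 9.05, 6.49 and 7.64 CPM with si-NC (-0.83 ± 0.21, adjusted p = 0.0445). Its call was lost in all 6 fits that left out 1 library.

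**Figure D5:**
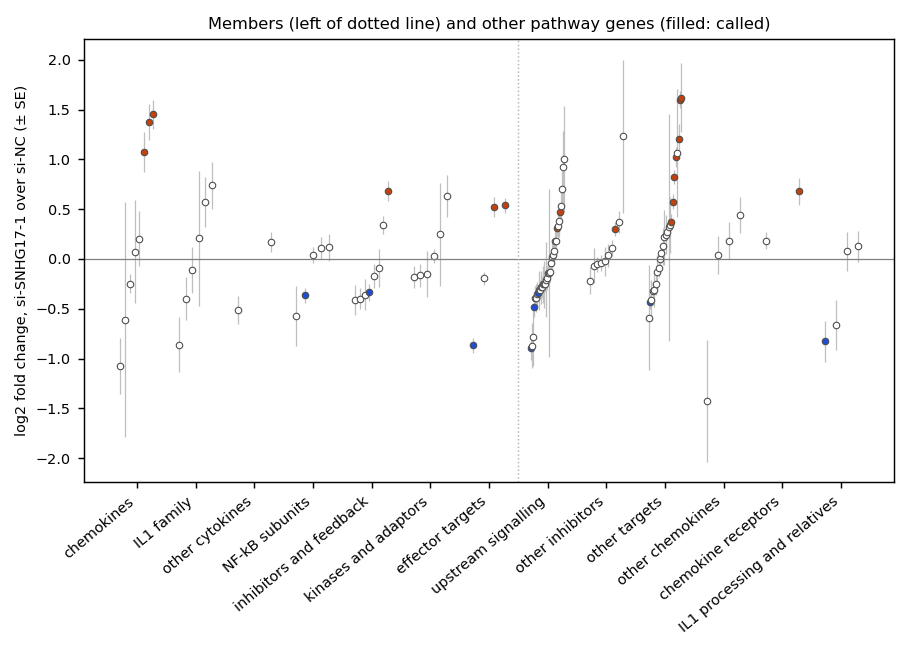
Log2 fold change of si-SNHG17-1 over si-NC with its SE for every tested gene, the 7 member groups left of the dotted line and 6 lists of other pathway genes right of it; filled points passed the test. The filled points lie on both sides of 0, and the highest are CXCL8 and CXCL2 among the members and PTGS2 and PLAU among the other targets.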

How the data were processed

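Per the submitters' processing notes, reads were aligned with HISAT2 to GRCh38; the counting program, its annotation and any strand setting were not given in the sources used. The authors deposited raw counts per gene, with no normalization. The 45 members and the pathway lists were chosen with earlier results of these data known. From the counts, edgeR 4.0.16 in R 4.3.3 was used: filterByExpr (a minimum count of 10 and a total of 15), TMM scaling, and glmQLFit and glmQLFTest for 3 si-SNHG17-1 against 3 si-NC libraries, with no covariate. P-values were Benjamini-Hochberg adjusted over 18679 genes and called at 0.05. The SE is the log2 fold change divided by the root of F. Levels per length used exon unions of GENCODE 29. An exact permutation test of 3 against 3 cannot go below p = 0.1 and was not used. Alternatives were other scalings and filters, DESeq2 1.42.0, limma-voom (limma 3.58.1), a replicate block, the CXCL1 to CXCL3 sum and each library left out. The procedure was tested on simulated data. Libraries of a group differed by far more than counting noise (chi-square per degree of freedom 24.8 to 50.9), so none was counted as a repeat. Named genes were all called members and the uncalled member of each group with the highest mean CPM. Also named were up to 2 called genes per direction from each pathway list, or its gene with the highest mean CPM where none was called. Other members were described by role.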

Additional observations from a re-analysis of the deposited data

How the results depend on the processing

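The 6 members called higher became 3 with the replicate block and 3 with a 2-fold threshold, and 5 to 6 with 1 library left out. The 3 called lower became 5 with a filter of 1 CPM in 3 libraries, 7 with DESeq2, 5 with limma-voom, 1 with the replicate block, 0 with the 2-fold threshold and 1 to 5 with 1 library left out. In either direction, DESeq2 called 16 members, the 1 CPM filter 12 and limma-voom 11, each with all 9 main calls among them. The share of all genes called by each of these alternatives is not given here, so their member counts have no background beside them. The members called were not always the same: with 1 library left out, 6 to 11 were called, and 5 to 8 of the 9 main calls were kept. The counts of all genes higher and all genes lower were 980 and 974; the replicate block gave 273 and 259, no filter gave 627 lower, and leaving out 1 library gave 313 to 694 higher and 264 to 705 lower, from fewer samples. SNHG17 passed in every alternative. Same-numbered libraries did not deviate together over all genes tested (correlations -0.017, -0.037 and -0.015). With 3 libraries per group this cannot settle whether the numbers pair samples, and the labels do not say. With the block, 4 of the 9 member calls passed, and CXCL3 (adjusted p = 0.0537), SOD2 (0.0576), NFKBIB (0.0545), NFKB2 (0.0988) and TNIP1 (0.138) did not. TNIP1 was also lost with total counts (0.0693) and no filter (0.0832). CCL5 passed with the 1 CPM filter (0.0485), DESeq2 (0.000273) and limma-voom (0.0334). Members uncalled in every fit named here changed sign: CCL20 to -0.22 with limma-voom, -0.13 with the replicate block, and over -0.61 to 0.43 with 1 library left out (-0.61 without si-SNHG17-1 replicate 3, -0.02 without si-NC replicate 1); CX3CL1 to 0.65 with limma-voom; IL1B to 0.066 without si-NC replicate 3 (range -0.26 to 0.066); IL1RN to -0.22 without si-SNHG17-1 replicate 1 (-0.22 to 0.55); NFKBIZ to 0.10 and BIRC2 to -0.14 (-0.14 to 0.98) without si-NC replicate 1; BIRC3 to 0.11 without si-NC replicate 2 (-0.40 to 0.11). Except where the alternative has fewer samples or genes, the cause was not tested. Depth limits members below about 0.1 CPM.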
